A study of Mus musculus with 42 samples.

Results

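A group of 8 named genes of osmolyte and organic anion transport was followed in bone-marrow-derived macrophages (BMDM), out of the 37310 genes in the count table, found by their Ensembl identifiers. They are Nfat5, the transporters Slc5a3, Slc6a6 and Slc38a2, the enzyme Akr1b3, the chaperone Hspa4l, and the organic anion transporters Slco4a1 and Slco2b1. They were chosen by their measured counts, for the difference between genotypes at Control 0 h set against the other times, so every genotype difference of these genes, also in a response, is a description here and carries no test. Responses to treatment and later time in culture within a genotype were not themselves the measure used for that choice, and were tested. They rest on the same libraries as the genotype differences at the other times. The genes and tests were also chosen with earlier results of these data known. How far the choice affects the p-values of these responses was not tested. All 8 genes passed the filter on low counts, among 11624 genes tested.

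BMDM were grown from the marrow of young adult male C57BL/6 mice in medium conditioned by L929 cells. Mice labelled KO carried floxed Irf5 alleles and LysM-Cre, a Cre recombinase inserted in the Lyz2 locus that is active in myeloid cells. Whether mice labelled WT carried Cre or floxed alleles is not given in the sources used here. Each label was studied in 7 conditions, which were Control at 0, 2 and 24 h, LPS (bacterial lipopolysaccharide) at 2 and 24 h and palmitate (a saturated fatty acid) at 2 and 24 h, with 3 libraries in each of the 14 groups. Library numbers only name the columns of a group. Nothing in the labels says that the libraries of a group came from separate mice or cultures, so p-values measure the spread between these libraries, which may be technical.

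Total counts lay between 2848793 and 7743442 per library, and 3 counts corresponded to 0.397 to 1.14 CPM (counts scaled to library size and by TMM, the unit of all levels here). Irf5 was not lower in the libraries labelled KO: at Control 0 h it read 279 to 328 CPM in KO and 210 to 230 CPM in WT, and its KO over WT log2 fold change was positive in each condition. The counts of the target thus went against the label. Counts per gene do not separate the deleted exons from the rest and so cannot check the deletion itself, and the words KO and WT below mean the libraries labelled so. Lyz2, the site of the Cre insertion, was lower in KO without overlap in 7 of 7 conditions. All 7 macrophage markers exceeded 3 counts in every library. At Control 0 h the summed level of 5 fibroblast markers was 42.1 to 69.3 CPM in KO (5 of 5 with a count) and 0.529 to 0.905 CPM in WT (4 of 5, Dcn at 0). The KO sum came mostly from the collagen genes Col1a1, Col1a2 and Col3a1, with means of 29.3, 16.7 and 6.48 CPM. Pdgfra and Dcn were near 0, at 0.547 and 0.0571 CPM. The sum of 10 granulocyte precursor markers was 81.7 to 87.8 CPM in KO (10 of 10) and 51.0 to 61.4 CPM in WT (9 of 10, Prtn3 at 0). Of these, Elane and Retnlg had lower means in KO (0.125 and 0.0571 CPM) than in WT (0.193 and 0.104 CPM), all near 0. Both lists moved with the genotype label at this time. At Control 2 h the fibroblast sum was 72.3 to 118 CPM in KO and 1.16 to 58.7 CPM in WT. The granulocyte precursor sum was 71.6 to 138 CPM in KO and 20.7 to 37.4 CPM in WT there. At Control 24 h the fibroblast sums overlapped (39.5 to 133 and 2.74 to 45.2 CPM). The granulocyte precursor sums did not (138 to 219 and 59.3 to 65.8 CPM). The part of either list in the differences below was not tested. In bulk samples, fewer cells of a type and less RNA of a gene per cell cannot be told apart.

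NFAT5, also called TonEBP, is the transcription factor of the response to hypertonicity. When cells lose water it accumulates and raises genes for the uptake or synthesis of small organic osmolytes, such as inositol, taurine, sorbitol and neutral amino acids, and for chaperones that protect proteins. In macrophages it also takes part in the response to Toll-like receptor ligands such as LPS. The SLCO genes encode OATP proteins, which carry organic anions, steroid conjugates and thyroid hormones across the plasma membrane, and they are not classical osmotic genes.

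The promoters of the 3 genes with the widest genotype differences at Control 0 h, Slc5a3, Slco4a1 and Slco2b1, are shown to place the genes for a reader. They are the 250 bases before a RefSeq transcript start in GRCm38.p6, written 5′ to 3′ on the strand of the gene in lower case. Capitals mark TGGAAA or its reverse complement TTTCCA, the core of the element that NFAT5 binds, which contains the GGAAA core shared with the other NFAT factors.
Slc5a3, chr16:92058072-92058321, plus strand: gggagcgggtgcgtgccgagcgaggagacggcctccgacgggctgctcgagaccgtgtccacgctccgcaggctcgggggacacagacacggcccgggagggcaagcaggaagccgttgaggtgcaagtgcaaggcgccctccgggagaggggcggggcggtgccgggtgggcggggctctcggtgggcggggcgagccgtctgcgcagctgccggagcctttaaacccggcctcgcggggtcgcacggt
Slco4a1, first start, chr2:180455995-180456244, plus strand: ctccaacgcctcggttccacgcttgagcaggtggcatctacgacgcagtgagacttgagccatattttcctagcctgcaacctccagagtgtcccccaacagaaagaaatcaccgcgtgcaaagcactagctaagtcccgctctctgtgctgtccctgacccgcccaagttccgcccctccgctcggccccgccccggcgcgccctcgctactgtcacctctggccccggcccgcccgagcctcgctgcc
Slco2b1, first start, chr7:99711341-99711590, minus strand: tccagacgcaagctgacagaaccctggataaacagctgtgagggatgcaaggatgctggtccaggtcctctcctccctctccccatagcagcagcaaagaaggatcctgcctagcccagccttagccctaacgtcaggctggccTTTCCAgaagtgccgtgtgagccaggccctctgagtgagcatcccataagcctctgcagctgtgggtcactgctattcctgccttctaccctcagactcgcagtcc
Slco2b1, start further into the gene, chr7:99695810-99696059, minus strand: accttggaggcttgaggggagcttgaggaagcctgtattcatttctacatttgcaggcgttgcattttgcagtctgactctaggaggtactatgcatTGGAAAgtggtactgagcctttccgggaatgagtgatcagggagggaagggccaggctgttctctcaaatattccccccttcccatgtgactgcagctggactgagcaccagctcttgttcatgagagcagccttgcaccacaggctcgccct
The table of promoters held 6 of the 8 genes (not Slc6a6 or Akr1b3) with 9 windows, and 2 of these 9 held the core, both of Slco2b1. Its matches began 106 and 153 bases before the start. A further window of Slco2b1 (chr7:99706843-99707092) and a further window of Slco4a1 (chr2:180460728-180460977) did not hold the core and are not shown. Of 32851 mouse windows of the same length, 18.6% held the core, and a match in so short a window is a description of the letters only.

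Slc5a3 and Slco4a1 showed the largest differences between genotypes, and these were seen at Control 0 h. Slc5a3 (chr16:92058322-92087473, plus strand, GRCm38) encodes the sodium-coupled transporter of myo-inositol. At Control 0 h it read 256, 110 and 289 CPM in the 3 KO libraries and 51.2, 42.6 and 45.9 CPM in the WT libraries. The groups did not overlap, and KO library 2 stood at 40.4% of the mean of the other two. The KO over WT log2 fold change was 2.23 (SE 0.19), or 4.69-fold. It ranged from 1.98 to 2.56 when each of the 6 libraries was left out in turn.

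The same gene had the opposite order 2 h later. At Control 2 h, Slc5a3 read 32.03, 30.79 and 36.31 CPM in KO and 45.7, 42.9 and 47.7 CPM in WT, again without overlap. The log2 fold change was -0.46 (SE 0.22). At the other 5 conditions the libraries of the genotypes overlapped, with log2 fold changes from -0.05 at palmitate 2 h to 0.66 (SE 0.27) at LPS 24 h. In the order of all 14 group means, KO Control 0 h at 218 ± 95.2 CPM (SD, n = 3) stood without overlap above KO palmitate 24 h at 57.0 ± 6.95 CPM (SD, n = 3).

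Slc5a3 lies within the span of Mrps6, a gene for a mitochondrial ribosomal protein on the same strand, and 159 exon bases, 1.46% of the exons of Slc5a3, are shared. Mrps6 read 27.1, 17.8 and 28.4 CPM in KO and 7.06, 11.7 and 13.2 CPM in WT at Control 0 h. Its levels also did not overlap there, and its log2 fold change was 1.17 (SE 0.22). How the counting assigned reads of the shared bases was not given, so the counts of the pair are uncertain to that extent.

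Slco4a1 (chr2:180456245-180474867, plus strand) encodes OATP4A1, a carrier of thyroid hormones and other organic anions. At Control 0 h it read 294, 117 and 358 CPM in KO and 45.2, 49.7 and 32.9 CPM in WT. KO library 2 was again the lowest of its group, at 35.9% of the mean of the other two, and still lay above each WT library. The log2 fold change was 2.60 (SE 0.22, from the same spread over all groups), or 6.05-fold, and ranged from 2.28 to 2.96 with each library left out. At Control 2 h it was 0.26 (SE 0.26) and at Control 24 h 0.12 (SE 0.22).

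Unlike that of Slc5a3, the gap of Slco4a1 was also without overlap in treated cells at 24 h. Slco4a1 read 139, 89.6 and 124 CPM in KO and 59.3, 74.2 and 64.4 CPM in WT at palmitate 24 h, a log2 fold change of 0.84 (SE 0.22). At LPS 24 h it read 121, 62.7 and 104 CPM in KO and 41.9, 62.1 and 40.3 CPM in WT, a log2 fold change of 1.01 (SE 0.23). The lowest KO library at LPS 24 h lay just above the highest WT library. The log2 fold change was positive in 7 of 7 conditions.

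Slco2b1 (chr7:99657804-99711340, minus strand), which encodes OATP2B1, a carrier of steroid sulphates, was the low-abundance gene of the group and ran the other way. At Control 0 h it read 4.91, 6.68 and 4.50 CPM in KO and 11.04, 14.21 and 11.64 CPM in WT, with every WT library above every KO library. The log2 fold change was -1.19 (SE 0.27). At LPS 2 h it was -1.13 (SE 0.30), from 4.94, 5.88 and 4.33 CPM in KO and 15.4, 9.04 and 9.84 CPM in WT. At palmitate 24 h it was -1.57 (SE 0.30), from 2.14, 3.98 and 3.20 CPM in KO and 8.82, 12.9 and 6.13 CPM in WT. These 3 conditions were without overlap, while Control 2 h, palmitate 2 h and Control 24 h overlapped, with log2 fold changes of -0.14, -0.51 and -0.33. An antisense gene, Gm15635, overlaps Slco2b1 and had at most 2 counts in a library.

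The regulator Nfat5 (chr8:107293470-107379517, plus strand) differed less between genotypes. At Control 0 h it read 116, 106 and 112 CPM in KO and 81.8, 72.0 and 71.8 CPM in WT, without overlap, for a log2 fold change of 0.57 (SE 0.12). The WT libraries at this time were its lowest group of the 14, and they did not overlap the next, WT palmitate 24 h at 88.9 to 104 CPM. In the other 6 conditions the genotypes overlapped and the log2 fold change lay between 0.03 and 0.30. Slc38a2 (chr15:96687392-96699730, minus strand), which encodes the neutral amino acid transporter SNAT2, read 145, 92.6 and 158 CPM in KO and 65.5, 75.3 and 80.0 CPM in WT at Control 0 h. Its groups did not overlap there (log2 fold change 0.84, SE 0.12), nor at Control 2 h (0.31, SE 0.12).

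Akr1b3, Hspa4l and Slc6a6 had smaller genotype gaps at Control 0 h than the other genes of the group. Akr1b3 (chr6:34302434-34317478, minus strand) encodes aldose reductase, which makes sorbitol from glucose. It read 96.2, 69.5 and 109 CPM in KO and 73.1, 70.1 and 67.7 CPM in WT at Control 0 h, so that KO library 2 fell among the WT libraries (log2 fold change 0.38, SE 0.11). Hspa4l (chr3:40744495-40796103, plus strand) encodes a chaperone of the HSP110 family first described as an osmotic stress protein. It read 45.0, 39.6 and 48.4 CPM in KO and 35.6, 33.9 and 34.7 CPM in WT, a log2 fold change of 0.35 (SE 0.13) without overlap. The taurine transporter gene Slc6a6 (chr6:91684053-91759066, plus strand) was marginally lower in KO, at 1354, 1377 and 1324 CPM against 1460, 1409 and 1443 CPM in WT (-0.09, SE 0.04). It was below WT without overlap in 4 of the 7 conditions, by at most 0.09 on the log2 scale. Akr1b3 took the opposite sign later. It was lower in KO without overlap at Control 2 h, at 47.6, 55.3 and 63.6 CPM against 70.5, 66.2 and 70.1 CPM in WT (-0.31, SE 0.11). At LPS 2 h it was also lower without overlap (-0.16, SE 0.13).

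Across the 8 genes, the KO and WT libraries did not overlap at Control 0 h for 5 genes higher and 2 lower in KO, against 28% of all tested genes in either direction (14.2% higher and 13.9% lower). At Control 2 h they did not overlap for 2 higher and 3 lower (16.9% of all genes), at palmitate 2 h for 0 and 1 (16.1%) and at LPS 2 h for 0 and 2 (12.8%). At Control 24 h there were 0 such genes of the 8 (11.6% of all genes), at palmitate 24 h 1 higher and 2 lower (12.5%), and at LPS 24 h 1 higher and 0 lower (13.4%). Since these gaps chose the genes, the counts describe the choice.

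**Figure D1:**
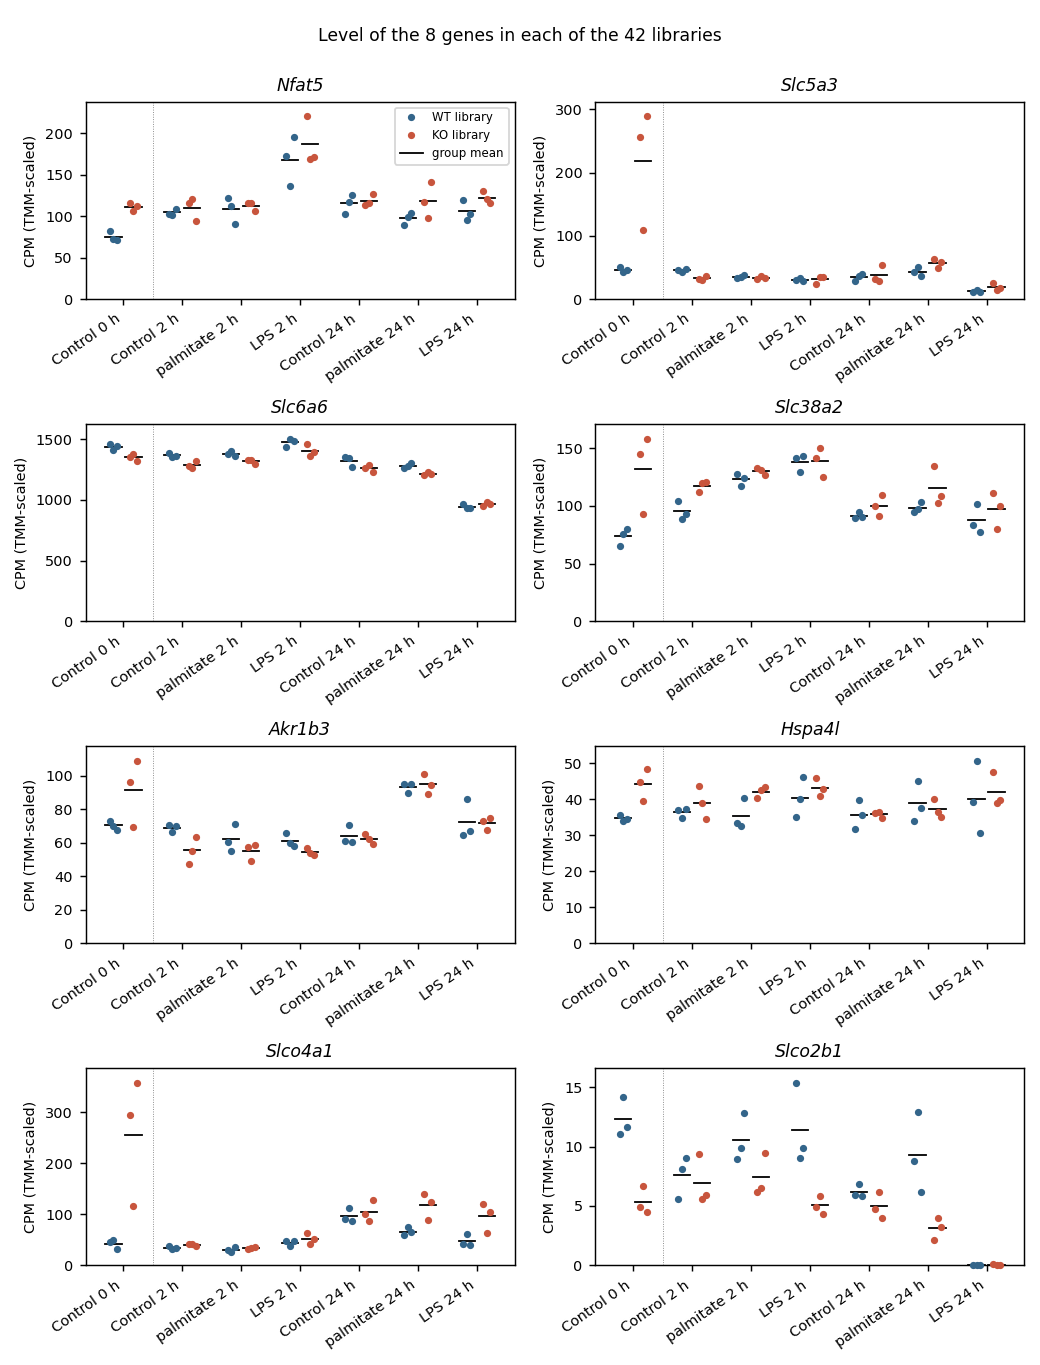
Levels of the 8 genes (vertical axes, TMM-scaled CPM from 0, a different range for each gene) in the 7 conditions, with 1 point per library (blue WT, red KO) and black lines at the means of the 3 libraries. All 3 KO libraries at Control 0 h stand above every other library for Slc5a3, and libraries 1 and 3 do so for Slco4a1, with library 2 at 110 and 117 CPM, and Slco2b1 lies at or near 0 in both genotypes at LPS 24 h.

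**Figure D2:**
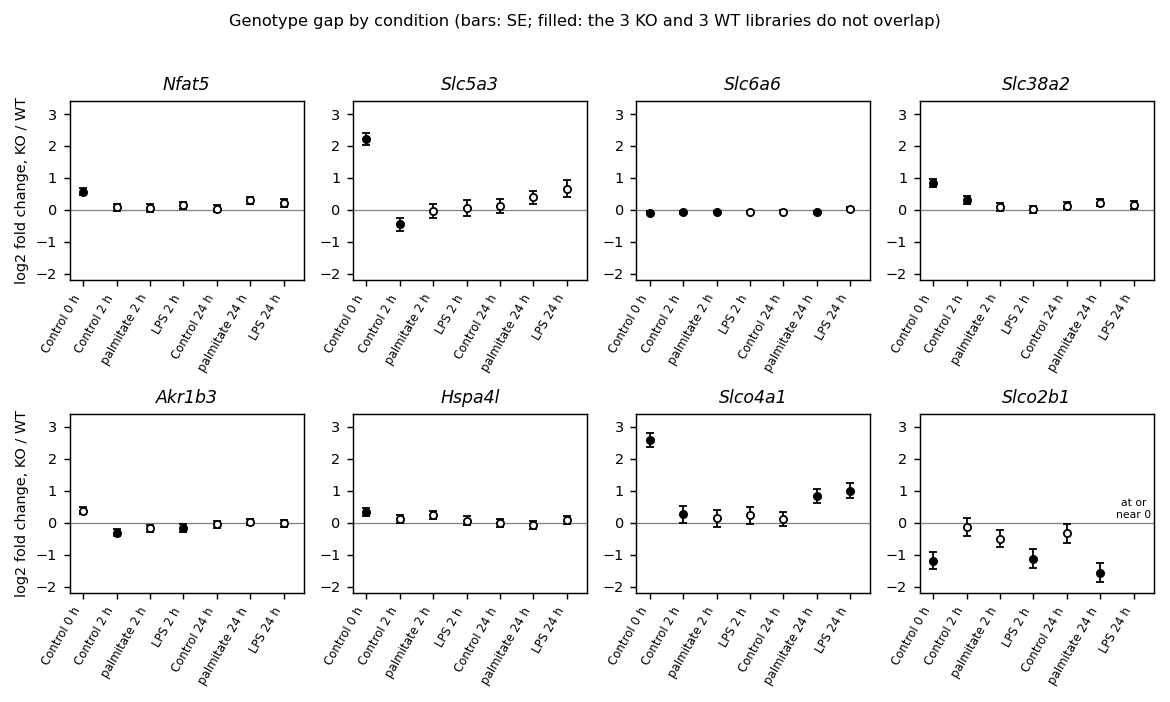
KO over WT log2 fold change (vertical axis) of the 8 genes in the 7 conditions (horizontal axis), with bars of 1 SE and filled points where the 3 KO and 3 WT libraries do not overlap. Slc5a3 goes from 2.23 at Control 0 h to -0.46 at Control 2 h, and Slco4a1 from 2.60 to 0.26. No value is drawn for Slco2b1 at LPS 24 h.

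KO library 2 at Control 0 h was the lowest of its group for 6 of the 8 genes. Its level relative to the mean of the other 2 libraries was 92.6% for Nfat5, 61.0% for Slc38a2, 67.8% for Akr1b3 and 84.7% for Hspa4l, and 64.2% for Mrps6. For Slc6a6 it was 103% and for Slco2b1 142%. The 2 genes with the widest gaps were thus also those in which the KO libraries differed most among themselves. The summed fibroblast markers in the 3 KO libraries were 47.7, 42.1 and 69.3 CPM in the same order. Lyz2 read 7365, 5377 and 8766 CPM in them. Its means in the other KO groups lay between 4979 CPM (palmitate 2 h) and 5887 CPM (Control 24 h). The part of either in this spread was not tested.

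The abundances of the 8 genes differed widely. As mean CPM per kilobase of exon over the 42 libraries, Slc6a6 was the highest at 152, followed by Slco4a1 at 15.8, Slc38a2 at 12.4, Akr1b3 at 8.33, Nfat5 at 6.43, Slc5a3 at 4.44, Hspa4l at 3.31 and Slco2b1 at 1.08. Slc6a6 had group means from 945 ± 18.1 CPM (SD, n = 3) in WT LPS 24 h to 1476 ± 36.1 CPM (SD, n = 3) in WT LPS 2 h, a ratio of 1.56. Hspa4l was the most even, with all 42 libraries between 30.6 and 50.8 CPM, and neighbours in the order of its group means overlapped in 13 of 13 pairs.

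LPS raised Nfat5 within 2 h in both genotypes. Nfat5 read 172, 137 and 196 CPM with LPS and 103, 101 and 109 CPM in Control in WT, without overlap. The rise was 0.69 on the log2 scale (SE 0.11), with an adjusted p = 3.67e-06 in the quasi-likelihood test of edgeR. In KO it read 220, 169 and 171 CPM with LPS and 116, 120 and 94.7 CPM in Control, a rise of 0.75 on the same scale (SE 0.11, adjusted p = 5.65e-07). By 24 h the libraries overlapped, with log2 fold changes of -0.14 (SE 0.11) in WT and 0.04 (SE 0.11) in KO. Tnf, an LPS-induced cytokine gene used as a check of the treatment, rose by 4.77 on the log2 scale in WT and 4.65 in KO at 2 h.

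The osmolyte genes below Nfat5 did not all move with it at 2 h of LPS. Slc38a2 rose in WT, from 104, 88.7 and 92.9 CPM to 142, 129 and 143 CPM (log2 fold change 0.54, SE 0.12, adjusted p = 0.000438). In KO it read 112, 120 and 121 CPM in Control and 142, 150 and 125 CPM with LPS (log2 fold change 0.24, SE 0.12, adjusted p = 0.146). The KO response minus the WT response was -0.30 (SE 0.17), given without a test. Slc6a6 was called in KO at a small log2 fold change (0.12, SE 0.04, adjusted p = 0.0323), a call that ended when any of 5 of the 6 libraries was left out (adjusted p 0.0606 to 0.245; KO LPS libraries 1 and 3 and each KO Control library). Slc5a3 in WT read 30.4, 33.1 and 27.9 CPM with LPS against 45.7, 42.9 and 47.7 CPM in Control, and its log2 fold change of -0.58 (SE 0.23, adjusted p = 0.0593) did not pass. An edgeR fit of only the libraries compared called it (adjusted p = 0.000343), and DESeq2 did not (adjusted p = 0.0932).

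At 2 h of LPS, 2 of the 8 genes were called in WT and 2 in KO, all higher. Of all genes tested, 23.1% were called in WT and 23.9% in KO, and 14% and 14.7% were called higher. The median log2 fold change of the 8 was 0.27 in WT and 0.13 in KO, beside -0.01 over all genes in each. In WT the fibroblast marker sum was 0.371 to 0.716 CPM with LPS and 1.16 to 58.7 CPM in Control. The granulocyte precursor sum was 50.1 to 76.9 CPM with LPS and 20.7 to 37.4 CPM in Control in WT. In KO the sums of either list overlapped, and the part of these lists in the responses was not tested. Comparisons of LPS and of palmitate at the same time and genotype share their Control libraries.

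At 24 h of LPS, Slc5a3, Slc6a6 and Slco2b1 were lower in both genotypes. Slc5a3 fell in WT from 29.2, 36.5 and 39.9 CPM to 10.95, 14.4 and 11.2 CPM (log2 fold change -1.56, SE 0.26, adjusted p = 1.55e-06). In KO it fell from 31.8, 27.9 and 54.4 CPM to 25.2, 14.4 and 17.6 CPM (-1.02, SE 0.23, adjusted p = 0.000353). Control library 3 in KO stood apart, and without it the log2 fold change was -0.62 and the call ended (adjusted p = 0.0526). Mrps6 was not called in either genotype (-0.48, SE 0.26, and -0.09, SE 0.24).

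Slc6a6 fell to the lowest levels it had. In WT it read 966, 934 and 935 CPM with LPS and 1351, 1344 and 1271 CPM in Control (log2 fold change -0.48, SE 0.04, adjusted p = 2.31e-13). In KO it read 953, 987 and 966 CPM with LPS and 1268, 1292 and 1231 CPM in Control (-0.38, SE 0.04, adjusted p = 2.5e-10). The LPS 24 h libraries of both genotypes lay below all other 36 libraries of this gene.

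Slco2b1 was all but lost after 24 h of LPS. It had 0 counts in each of the 3 WT libraries with LPS, where 3 counts would be 0.459 to 0.513 CPM, and read 5.90, 6.86 and 5.83 CPM in Control. Against that floor of 3 counts per library it was at least 12.6-fold lower (adjusted p = 1.21e-12). In KO it had 1 count over the 3 LPS libraries and 81 counts over the Control libraries at 4.72, 6.20 and 3.96 CPM, a ratio of Control to LPS of 92.3 with a 95% counting interval of 16.1 to 3691 (adjusted p = 5.28e-11). The interval covers counting error only. At 2 h the gene was still present, with the WT LPS libraries between 9.04 and 15.4 CPM and the KO LPS libraries between 4.33 and 5.88 CPM.

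Slco4a1 fell with LPS at 24 h in WT, from 90.1, 113 and 86.7 CPM to 41.9, 62.1 and 40.3 CPM (log2 fold change -1.01, SE 0.23, adjusted p = 0.000333). In KO it read 99.8, 86.4 and 128 CPM in Control and 121, 62.7 and 104 CPM with LPS, which overlapped (-0.12, SE 0.21, adjusted p = 0.690). The KO response minus the WT response was 0.89 (SE 0.32), also without a test, so the genotypes are not shown to differ here. Nfat5, Slc38a2, Akr1b3 and Hspa4l were not called at 24 h of LPS in either genotype, with log2 fold changes between -0.14 and 0.24. An edgeR fit of only the libraries compared did call Akr1b3 in KO (0.22, adjusted p = 0.0376).

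In all, 4 of the 8 genes were called in WT at 24 h of LPS and 3 in KO, all lower, when 39.5% and 40.9% of all genes were called and 19.9% and 21% were called lower. The median log2 fold change of the 8 was -0.31 in WT and -0.09 in KO, beside -0.01 over all genes in each. Slco2b1 was the lowest of the 8 values even when set at its floor, so its exact value does not enter either median. The summed granulocyte precursor markers, which include Lcn2, a gene that macrophages also raise after LPS, were 339 to 451 CPM with LPS and 59.3 to 65.8 CPM in Control in WT, and 331 to 399 CPM and 138 to 219 CPM in KO. The fibroblast marker sum was 0.171 to 2.48 CPM with LPS and 2.74 to 45.2 CPM in Control in WT, and overlapped in KO. The part of either list in these differences was not tested.

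In the fit over all groups, palmitate raised a single gene of the 8, Akr1b3, and did so at 24 h in both genotypes. Akr1b3 read 94.8, 89.9 and 94.9 CPM with palmitate and 60.9, 70.6 and 60.5 CPM in Control in WT. Its log2 fold change was 0.54 (SE 0.11, adjusted p = 0.00409). In KO it read 101, 89.1 and 94.5 CPM with palmitate and 65.3, 62.3 and 59.0 CPM in Control (log2 fold change 0.61, SE 0.11, adjusted p = 0.000593). All 6 palmitate libraries lay above all 6 Control libraries. Without Control library 3 in WT the log2 fold change was 0.49 and the call ended (adjusted p = 0.0677). Plin2, a lipid droplet gene used as a check of the treatment, rose by 1.99 on the log2 scale in WT and 2.02 in KO.

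With 1 of 8 called, 0.852% of all genes were called at palmitate 24 h in WT and 0.877% in KO, and 0.671% and 0.637% were called higher. The median log2 fold change of the 8 genes was 0.11 in both, and that of all genes was 0.00. The fibroblast marker sum was 0 to 7.32 CPM with palmitate and 39.5 to 133 CPM in Control in KO, and 0.346 to 10.2 CPM and 2.74 to 45.2 CPM in WT. It moved with the treatment in KO, and its part in the difference was not tested. Akr1b3 has close paralogs, among them Akr1b8, and how reads that match several of them were counted was not given.

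Slco4a1 and Slc5a3 did not pass the test at palmitate 24 h in the fit over all groups. Slco4a1 in WT read 59.3, 74.2 and 64.4 CPM with palmitate, below the Control libraries at 86.7 to 113 CPM (log2 fold change -0.55, SE 0.23, adjusted p = 0.379). Slc5a3 in KO read 63.4, 49.6 and 58.0 CPM with palmitate and overlapped Control (0.55, SE 0.21, adjusted p = 0.352). Without Control library 3 in KO, the log2 fold change was 0.94 and passed (adjusted p = 0.0386). An edgeR fit of only the libraries compared called Slco4a1 in WT (adjusted p = 0.00361) and Slc5a3 in KO (adjusted p = 0.0104). DESeq2 called neither, so these results depend on the fit. At 2 h of palmitate, the edgeR test called 0 of the 8 genes in WT and 0 in KO, with 0.275% and 0.112% of all genes called. At an unadjusted p under 0.05 the counts were 1 and 0, and DESeq2 also called 0 in each. The 1 gene was Slc38a2 in WT, at 127, 117 and 124 CPM with palmitate and 104, 88.7 and 92.9 CPM in Control (0.37, SE 0.12, adjusted p = 0.291).

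**Figure D3:**
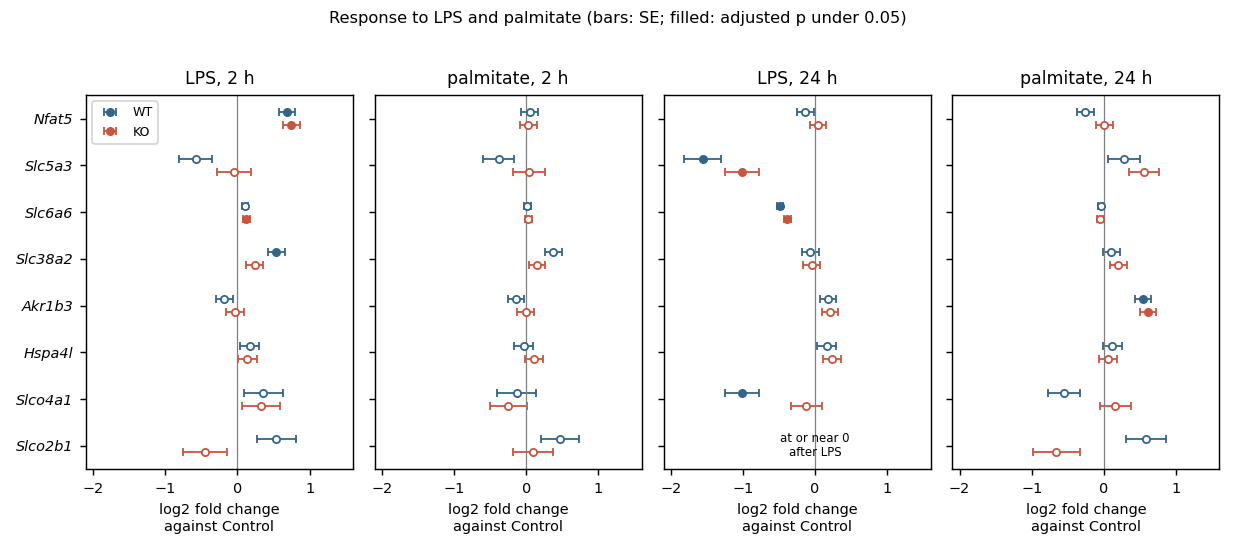
Log2 fold change of LPS or palmitate against Control at equal time and genotype (horizontal axes) for the 8 genes (rows), blue for WT and red for KO, with bars of 1 SE and filled points at an adjusted p under 0.05. Nfat5 is higher at 2 h of LPS in both genotypes (0.69 and 0.75), Slc5a3 and Slc6a6 are lower at 24 h of LPS, and Akr1b3 is higher at 24 h of palmitate (0.54 and 0.61). Slco2b1 at 24 h of LPS is not drawn because it was at or near 0.

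The KO minus WT differences in response compare genotype gaps at 2 and 24 h, which entered the choice of the genes, so they are described and not tested. For Nfat5 the difference lay between -0.02 and 0.26 on the log2 scale over the 4 comparisons of treatment and time, and for Slc6a6 between -0.01 and 0.10. For Slco4a1 at palmitate 24 h it was 0.71 (SE 0.31), and for Slco2b1 at palmitate 24 h it was -1.24 (SE 0.43).

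Between 2 and 24 h of Control, the main fit called a single gene of the 8, the same in both genotypes. A fit of only the libraries compared also called Slc5a3 in WT and Slc38a2 in KO. The step from 0 to 2 h of Control was not tested. Across that step the mean of Slco4a1 went from 257 to 40.7 CPM in KO and from 42.6 to 34.1 CPM in WT. Slco4a1 rose between 2 and 24 h of Control in WT from 37.4, 31.4 and 33.5 CPM to 90.1, 113 and 86.7 CPM (log2 fold change 1.51, SE 0.24, adjusted p = 4.84e-06). In KO it rose from 41.3, 42.6 and 38.3 CPM to 99.8, 86.4 and 128 CPM (1.37, SE 0.24, adjusted p = 2.62e-05). In both genotypes every 24 h library lay above every 2 h library. Of all genes, 11.4% were called in WT and 9.33% in KO, and 4.28% and 3.41% were called higher. The other 7 genes had log2 fold changes between -0.50 and 0.24. In KO the 24 h level of 105 ± 21.2 CPM (SD, n = 3) was below that of 0 h, 257 ± 125 CPM (SD, n = 3), though the libraries overlapped.

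Other genes of cell volume and osmolyte handling were described from a list of 41, of which 32 were tested. At 2 h of LPS, 8 rose (25%) and 0 fell in WT, when 14% of all genes were called higher and 9.1% lower. In KO 8 rose (25%) and 3 fell (9.38%), beside 14.7% and 9.16%. Lrrc8c, a subunit of the volume-regulated anion channel, rose by 1.04 (SE 0.12, adjusted p = 1.3e-09) on the log2 scale in WT and 1.32 (SE 0.12, adjusted p = 1.29e-12) in KO. Lrrc8b, another subunit, rose by 1.33 in KO, and Slc38a1, a neutral amino acid transporter like Slc38a2, rose by 0.52 in WT. Sord, the enzyme that breaks down sorbitol, fell by 0.40 in KO. The median of the list was 0.10 in WT and 0.09 in KO, beside -0.01 over all genes.

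At 24 h of LPS, 9 of the 32 rose (28.1%) and 6 fell (18.8%) in WT, beside 19.6% and 19.9% of all genes. In KO 10 rose (31.2%) and 8 fell (25%), beside 19.9% and 21%. Lrrc8c was also higher, by 1.10 and 1.20 on the log2 scale, and Slc12a7, a potassium chloride cotransporter, rose by 0.53 and 0.76. Sord fell by 1.06 in WT and 0.83 in KO, and Slc12a2, the sodium potassium chloride cotransporter, fell by 1.20 in WT. At 24 h of palmitate the 1 called gene was Akr1b8, which encodes an aldo-keto reductase related to that of Akr1b3. It rose by 1.04 (SE 0.12, adjusted p = 1.99e-08) in WT and 1.18 (SE 0.12, adjusted p = 1.43e-09) in KO, and was the only gene of the list called there in either genotype (3.12%, beside 0.671% and 0.637% of all genes called higher). Between 2 and 24 h of Control 0 rose and 7 fell (21.9%) in WT and 0 and 6 (18.8%) in KO, when 7.15% and 5.92% of all genes were called lower. Sgk1, a kinase that responds to cell volume, was lower by 1.35 and 1.09 on the log2 scale.

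A list of 37 other organic anion transporters, of which 18 were tested, moved in both directions. At 2 h of LPS 3 rose (16.7%) and 1 fell (5.56%) in WT, and 5 (27.8%) and 1 (5.56%) in KO, beside 14% and 9.1% of all genes in WT and 14.7% and 9.16% in KO. Slc16a10, a transporter of aromatic amino acids and thyroid hormones, was higher by 1.08 (SE 0.07, adjusted p = 2.81e-17) and 1.23 (SE 0.07, adjusted p = 1.58e-19). At 24 h of LPS 4 rose (22.2%) and 6 fell (33.3%) in WT, and 3 (16.7%) and 5 (27.8%) in KO, beside 19.6% and 19.9% of all genes in WT and 19.9% and 21% in KO. Slco3a1, of the same family as Slco4a1 and Slco2b1, rose from 7.50 ± 1.19 to 32.5 ± 6.07 CPM (SD, n = 3) in WT and from 6.93 ± 1.75 to 31.9 ± 5.30 CPM (SD, n = 3) in KO (adjusted p = 3.26e-12 and 1.62e-12). Abcc1, an exporter of conjugated anions, fell by 0.64 and 0.57 on the log2 scale. The median of the list at 24 h was -0.27 in WT and -0.19 in KO. At 24 h of palmitate 1 gene rose in WT (Slc16a10, by 0.41) and 2 in KO (Slc16a10, by 0.43, and Abcc4, an exporter of cyclic nucleotides and other anions, by 0.46), beside 0.671% and 0.637% of all genes called higher. The call in WT ended without palmitate library 1. Between 2 and 24 h of Control 3 rose (16.7%) and 2 fell (11.1%) in WT, beside 4.28% and 7.15% of all genes. In KO 3 rose (16.7%) and 1 fell (5.56%), beside 3.41% and 5.92%. The count in WT went from 5 to 3 without library 2 of Control 2 h or of Control 24 h, and that in KO from 4 to 2 without library 3 of Control 2 h or library 2 or 3 of Control 24 h. At 2 h of palmitate, and in the 4 interactions of genotype and treatment (the KO response minus the WT response), the edgeR test called 0 genes of either list. Over all genes, 0% were called in 3 of the interactions and 0.0086%, 1 gene, for LPS 24 h. At an unadjusted p under 0.05, each of these comparisons gave between 1 and 5 of the osmolyte genes and between 0 and 3 of the anion transporters, and DESeq2 called 0 in each except for 1 anion transporter at palmitate 2 h in WT.

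At Control 0 h, KO and WT did not overlap for 7 genes higher and 4 lower of the 32 osmolyte genes (34.4%) and for 4 higher and 3 lower of the 18 anion transporters (38.9%), beside the 28% of all genes. The median gaps of the lists were 0.01 and -0.18 on the log2 scale, beside 0.00 over all genes. That of the 8 genes, which were chosen by this gap, was 0.47. The median of the anion transporters thus lay below that of all genes. Neither list had a median gap toward higher levels in KO near those of Slc5a3 and Slco4a1.

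The genes most alike each of the 8 were found by Pearson's r over the 14 group means of log2 CPM, as a description. Each mean is over the 3 libraries of its own group, and large treatment effects dominate the means. Nfat5 was most like Baz2b (r = 0.98), Slc6a6 most like Aplp2 (r = 0.98) and Slco2b1 most like Tceal9 (r = 0.98). Slc5a3 was most like Ldlrad3 (r = 0.94), Slco4a1 most like Sorl1 (r = 0.93) and Slc38a2 most like Zfp654 (r = 0.91), while Akr1b3 (Nucb1, r = 0.84) and Hspa4l (Atp10a, r = 0.85) had no closer match. Among the 8 themselves, Slc6a6 and Slco2b1 were the most alike (r = 0.96). Slco2b1 had 0 counts in the WT LPS 24 h libraries and 1 in those of KO, so its means there are at the floor. Slc6a6 also had its lowest means in these groups. How far the r values of Slco2b1 rest on these groups was not tested. Nfat5 had r = 0.72 with Slc38a2 but -0.17 with Slc5a3, 0.11 with Slc6a6 and -0.38 with Akr1b3. Slc5a3 and Slco4a1 had r = 0.54 over the 14 groups and 0.11 without the 0 h groups (12 means).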

How the data were processed

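Raw RNA-seq counts per gene were used as deposited for 42 libraries. The authors made stranded, ribodepleted total RNA libraries and aligned the reads to mm10. The submitters' notes also name mm9, with fastp 0.19.11 and STAR 2.7.3a. The annotation release, and whether counting used strand, are not given in the sources used here, so the counts of overlapping genes are uncertain. Columns named groups only, and every column matched 1 group. No row of the table lacked a gene identifier.

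The counts went into edgeR 4.0.16 under R 4.3.3. The 11624 genes that filterByExpr kept were scaled by TMM and fitted in 1 quasi-likelihood model over all groups, and p-values were adjusted by Benjamini-Hochberg over all genes tested, with a call at an adjusted p under 0.05. The SE is the log2 fold change divided by the square root of F, so it rests on a spread estimated over all groups. The 14 comparisons fitted were 8 of treatment, 4 interactions and 2 of time. The interactions were planned as tests of the 8 genes too, but compare genotype gaps that entered the choice of the 8, and are used as tests for the other lists only. Replicates of a group were compared by chi-square, taking genes that averaged 10 or more counts, and all 42 pairs differed by more than sampling noise (1.93 to 9.32 per degree of freedom).

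The 8 genes, the lists and the tests were chosen with earlier results of these data known. The genes named were the 8, the overlapping Mrps6, the checks Irf5, Lyz2, Tnf and Plin2, at most 2 genes per direction of each list (smallest adjusted p), and the genes most alike (Pearson's r, mean of at least 1 CPM). Positions are from the GENCODE annotation of GRCm38, and promoters from RefSeq. Alternatives were RLE factors, DESeq2 1.42.0, no filter, only the libraries compared, leaving out each library and, added after seeing the data, a fit without the Control 0 h libraries. Protein sequences were not used here.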

Additional observations from a re-analysis of the deposited data

Results flagged for a closer look

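The genotype difference of Slc5a3 took opposite signs at neighbouring times of Control culture, with a KO over WT log2 fold change of 2.23 (SE 0.19) at 0 h, where every KO library lay above every WT library, and -0.46 (SE 0.22) at 2 h, where every KO library lay below every WT library. The difference between the times was not tested, because it chose the gene.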

How the results depend on the processing

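No paired analysis was possible because the columns of the count table name a group and carry no replicate number. RLE factors changed none of the counts of called genes among the 8 within a genotype. DESeq2 changed 1, from 2 to 3 at LPS 2 h in WT (Slc6a6 added, 0.11, adjusted p = 0.00781). RLE moved the median of all genes by at most 0.00823 on the log2 scale. With all genes of at least 1 count, 4 of the 8 were called at LPS 2 h in WT, 1 at palmitate 2 h in WT (Slc38a2), and 2 at palmitate 24 h in WT and 2 in KO. At LPS 2 h in KO, Slco4a1 passed there (0.31, adjusted p = 0.0490) and Slc6a6 did not (0.10, adjusted p = 0.440). The interactions compare genotype gaps that entered the choice of the 8, so no call is read from them for these genes. With all genes of at least 1 count, the KO response minus the WT response of Slco4a1 at 24 h was 0.89 with LPS and 0.72 with palmitate. With only the libraries compared, the counts were 4 at LPS 2 h in WT (Slc5a3 and Slco4a1 added) and 1 in KO, 1 at palmitate 2 h in WT, 2 at palmitate 24 h in WT (Slco4a1 added, -0.56) and 2 in KO (Slc5a3 added, 0.55), and 2 for time in each genotype (Slc5a3 in WT, Slc38a2 in KO). That fit also added Akr1b3 at LPS 24 h in KO (0.22, adjusted p = 0.0376). Without the 6 Control 0 h libraries, an alternative chosen after seeing the data, 1 gene was called at LPS 2 h in KO (Slc6a6 lost, adjusted p = 0.0548), while Slc5a3 at LPS 2 h in WT passed (-0.58, adjusted p = 0.0106). The cause was not tested in these cases. With each library left out, the count ranged from 1 to 2 at LPS 2 h in KO, 2 to 3 at LPS 24 h in KO, 4 to 5 at LPS 24 h in WT, 0 to 1 at palmitate 24 h in WT and 1 to 2 at palmitate 24 h in KO, and stayed the same in the other comparisons. Of the lists, 1 osmolyte gene and 1 anion transporter were called at palmitate 2 h in WT with all genes of at least 1 count, against 0, and 4 anion transporters at palmitate 24 h in KO with only the libraries compared, against 2. At palmitate 2 h in WT the latter fit and DESeq2 also called 1 anion transporter. Hspa4l at LPS 24 h in WT passed without LPS library 3 (0.33, adjusted p = 0.0402), and the Control 24 h gap of Slc5a3 became -0.28 without KO library 3. None of the tested differences changed sign past the threshold. Depth was lowest for Slco2b1, which had between 0 and 90 counts in a library.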
